A study of Mus musculus with 8 samples.

Results

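Expression of 40 mitosis and G2/M genes was examined in regulatory T cells (Tregs) from wild type (WT) and Alox15-/- mice. The members were chosen by gene symbol, and all 40 were among the 28239 symbols of the count table. Each of the 40 reached 2 CPM (counts scaled to the total of the library) or more in 4 or more of the 8 libraries, the limit that 12700 genes passed for testing. CD4+ T lymphocytes from the spleens of C57BL/6 mice were taken as naïve cells, by magnetic removal of the other cell types, and cultured for 2 days with IL-2, TGF-β and beads carrying antibodies to CD3 and CD28, so that the libraries of both genotypes come from cells differentiated to Tregs in culture. By the labels, 4 libraries come from wild type mice and 4 from Alox15-/- mice, a genotype without the lipoxygenase ALOX15, and the level of Alox15 itself, given further on, goes against these labels. The study's methods describe adult mice of both sexes and sequencing of transcripts near their 3′ ends (MACE-seq), whereas the labels name a small RNA kit. They name Charles River as the source of the C57BL/6 mice and The Jackson Laboratory as that of the Alox15-/- mice, and mention no littermates. Genotype and source of the mice therefore cannot be told apart. The labels do not say that each library came from a separate animal, while the study describes as many Alox15-/- mice as there are Alox15-/- libraries and gives no such number for WT, and the p-values measure the spread between these libraries.

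Cells that leave G2 enter mitosis when cyclin B activates the kinase CDK1, which the CDC25 phosphatases switch on. Chromosomes then attach to the spindle through kinetochores, the spindle checkpoint holds back the anaphase-promoting complex until every chromosome is attached, and the chromosomal passenger complex and kinesins carry the division through to cytokinesis. Naïve T cells are quiescent and begin to divide after stimulation through CD3 and CD28, and their mitosis genes are switched on together. In quiescent cells the DREAM complex, which is built around the MuvB core, holds these genes off, and in G2 the MuvB core works with B-MYB and FOXM1 to turn them on. MuvB contacts the promoters at a short element called the cell cycle genes homology region (CHR), and the factor NF-Y binds CCAAT boxes nearby.

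The promoters of the members shared these elements, which played no part in the choice of the genes. RefSeq promoters (GRCm38.p6, from 250 bases before to 50 bases after the transcript start) were matched by symbol for 33 of the 40 genes, with 36 promoters in all. Bub3, Ect2 and Prc1 had 2 promoters each, which overlap, so that the same matches count for both. The shares below are of promoters and not of genes. The CHR, searched as TTTGAA on either strand, occurred in 28 of the 36 promoters (77.8%) and in 17.9% of all 32851 promoters. It lay within 50 bases of the start in 69.4% of the members' promoters and in 4.94% of all promoters. The CCAAT box, searched as CCAAT on either strand, occurred in 31 of the 36 (86.1%) and in 37.4% of all promoters. Both elements together were present in 72.2% of the members' promoters and in 6.95% of all promoters. At least 2 CCAAT boxes were present in 61.1% of the members' promoters and in 11.7% of all. A match is a run of letters and was not shown to be a bound site.

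The bases before the RefSeq start are shown 5′ to 3′ on the gene's own strand for Mki67, the only member that passed the test between the genotypes, and for 4 members with the same elements that did not pass it. Capitals mark the CHR (TTTGAA, or TTCAAA on the other strand) and the CCAAT box (CCAAT, or ATTGG on the other strand). Mki67 lies at chr7:135716380-135716579 on the minus strand, Cdk1 at chr10:69352913-69353032 (minus), Cdc20 at chr4:118437344-118437463 (minus), Ube2c at chr2:164769809-164769927 (plus) and Top2a at chr11:99024190-99024309 (minus).
Mki67: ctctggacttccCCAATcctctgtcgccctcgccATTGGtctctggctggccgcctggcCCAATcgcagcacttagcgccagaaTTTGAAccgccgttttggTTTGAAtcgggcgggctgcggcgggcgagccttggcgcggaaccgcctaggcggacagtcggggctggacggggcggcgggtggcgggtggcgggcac
Cdk1: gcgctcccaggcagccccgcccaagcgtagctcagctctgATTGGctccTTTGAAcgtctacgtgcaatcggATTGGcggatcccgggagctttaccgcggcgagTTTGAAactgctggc
Cdc20: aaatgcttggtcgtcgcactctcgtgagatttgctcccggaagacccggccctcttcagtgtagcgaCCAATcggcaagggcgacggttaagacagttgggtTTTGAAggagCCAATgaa
Ube2c: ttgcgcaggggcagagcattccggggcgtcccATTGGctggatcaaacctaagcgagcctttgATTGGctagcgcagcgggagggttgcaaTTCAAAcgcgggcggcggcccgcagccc
Top2a: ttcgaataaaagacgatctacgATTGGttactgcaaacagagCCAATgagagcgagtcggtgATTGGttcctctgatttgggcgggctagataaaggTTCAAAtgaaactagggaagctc
In Mki67 the 2 CHR matches begin 116 and 98 bases before the start, farther from it than the nearest CHR matches of Cdk1 (15 bases), Cdc20 (18 bases), Top2a (23 bases) and Ube2c (29 bases).

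The libraries held between 3723151 and 9538962 counts, WT replicate 3 being the deepest. Alox15, the targeted gene, had 292, 255, 337 and 454 counts in the libraries labelled Alox15-/- (replicates 1 to 4) and 12, 16, 77 and 43 in the WT libraries. It was thus higher in the libraries labelled Alox15-/-, with a log2 fold change of 3.65 (SE 0.30, adjusted p = 1.08e-05, edgeR quasi-likelihood test). Reads near the 3′ end cannot check a deletion elsewhere in the gene, and the deleted part is not given in the sources used here, so the genotypes below are those of the labels, and "Alox15-/-" and "WT" stand for libraries labelled so. If the labels of the genotypes were exchanged, every direction given below, those of Mki67 and Pttg1 included, would turn. The study's protein and lipid measurements, which bear on the genotype of the mice, were not analysed here. The 10 T cell markers had a median log2 fold change of -0.02 and the 10 Treg and activation markers one of -0.10, and none of the 20 passed the test. The chi-square per degree of freedom between WT replicate 3 and each other WT library was 10.7 to 17.4. For the other pairs within a genotype it was 4.59 to 9.71. This measure can rise with depth, and WT replicate 3 was the deepest library, so it cannot tell whether that library stood apart. WT replicate 3 held the highest value for 37 members, and the results that rest on this library are given with and without it.

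Markers of other cells were higher in the libraries labelled Alox15-/-. Those said to rise here passed the test as higher (adjusted p under 0.05, edgeR), as did 1.05% of all genes tested. Of the erythroid markers tested, 5 of 7 rose, and their summed level was 1246 to 3974 normalized CPM (CPM after TMM scaling of the library sizes) in Alox15-/- libraries against 537 to 609 in WT. Of the mast cell and basophil markers 8 of 9 rose (146 to 377 against 59.6 to 84.4 normalized CPM), and of the myeloid markers 6 of 8 (155 to 540 against 94.2 to 133). Both tested eosinophil markers rose (21.4 to 78.4 against 1.25 to 10.4), and of the eosinophil list Prg3, Ear2 and Ear6 were at 0 in all WT libraries. NK and gamma-delta T cell markers rose in 5 of 7 cases (95.8 to 177 against 35.4 to 56.7). All 7 of these and all 8 myeloid markers tested had log2 fold changes above 0. Among B cell markers 1 of 4, Ms4a1, was lower, the summed levels overlapping (216 to 316 against 213 to 308), and neither of the 2 CD8 T cell markers passed the test (12.1 to 21.9 against 21.5 to 31.8). The magnetic selection of naïve CD4+ T cells in the study's methods is a step that removes such cells. The part of these cells in the results below was not tested, and in bulk samples fewer dividing cells and less RNA per cell cannot be told apart.

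Between the genotypes, 1 of the 40 mitosis and G2/M genes changed at an adjusted p under 0.05. This was Mki67, which was lower in the libraries labelled Alox15-/-. Of all 12700 genes tested, 1.24% passed in either direction and 0.197% passed as lower. The other 39 genes had log2 fold changes between -0.36 (Kif4) and 0.11 (Ect2), with adjusted p-values between 0.691 and 0.998 in edgeR's quasi-likelihood test. At an unadjusted p under 0.05, 1 of the 40 passed, compared with 7.84% of all genes. Mki67 was also the only member whose 4 Alox15-/- libraries did not overlap the 4 WT libraries, a separation found in 5.25% of all genes. Across the 40 genes the log2 fold change was below 0 for 35 (87.5%), compared with 51.8% of all genes tested, and the median was -0.16, compared with -0.0075 for all genes tested.

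The precision of these libraries set a limit on what could be missed. For each of the 39 genes other than Mki67, the 95% interval of the log2 fold change lay between -0.88 and 0.64, so that in this test it reached a difference of 2-fold for none of them. The interval was wider in other fits, as for Cenpe, whose SE of 0.33 became 0.44 in edgeR's robust test and 0.47 in DESeq2, so that this limit does not hold in those, nor in some of the fits with a library left out. For 19 of the 39 the interval lay within 1.5-fold in either direction. The counts behind these values ran from 37 to 5754 per gene and library. The heat map of the 40 genes shows their levels side by side.

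**Figure D1:**
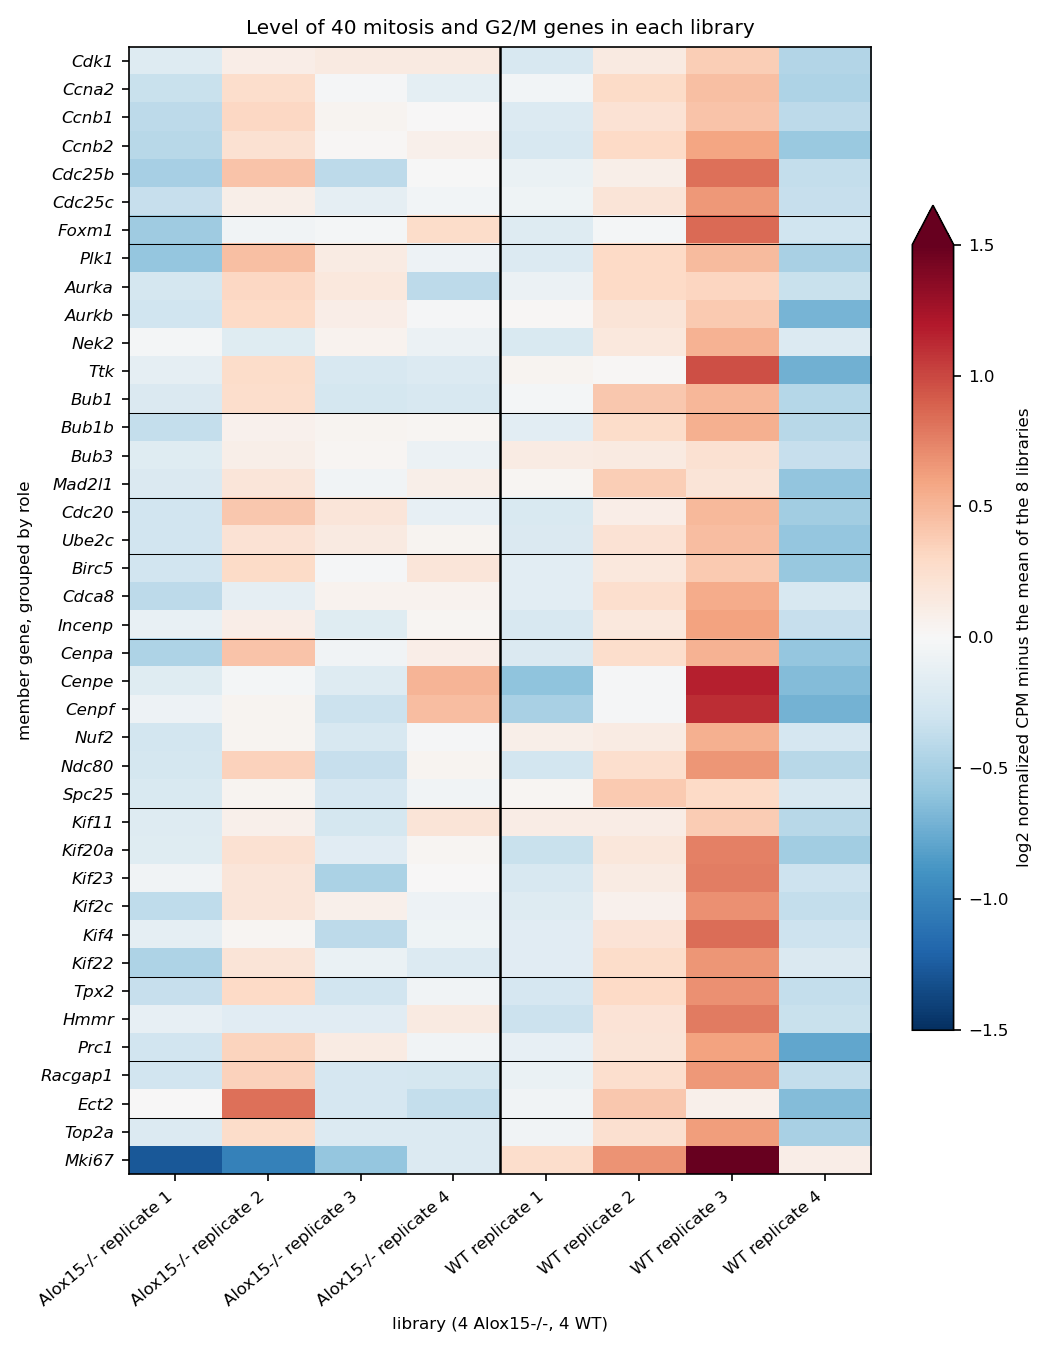
Heat map of the 40 genes (rows, grouped by role and separated by lines) in the 4 Alox15-/- and 4 WT libraries (columns); colour gives log2 normalized CPM minus the mean of the 8 libraries, with values over 1.5 drawn in the darkest red. WT replicate 3 is the reddest column and holds the highest value for 37 of the 40 genes, WT replicate 4 holds the lowest for 25, and Mki67 in the bottom row is the single gene whose genotypes do not overlap.

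Mki67 encodes Ki-67, a protein of cycling cells that coats mitotic chromosomes and is the common marker of proliferation. It lies on chromosome 7 from 135689784 to 135716361 (GENCODE annotation of GRCm38). Its normalized CPM was 19.8, 23.6, 31.8 and 41.4 in Alox15-/- replicates 1 to 4 and 57.1, 75.9, 194 and 51.2 in WT replicates 1 to 4. All Alox15-/- libraries lay below all WT libraries, and WT replicate 3 lay far above the next WT library. The means were 29.2 ± 9.59 in Alox15-/- and 94.5 ± 67.0 in WT (SD, n = 4 each), a log2 fold change of -1.69 with an SE of 0.36 and a 95% interval from -2.45 to -0.92 (edgeR quasi-likelihood test, adjusted p = 0.027). The level in WT was 3.22 times that in Alox15-/-. Among the 25 genes called lower in the libraries labelled Alox15-/-, Mki67 had the 6th largest difference. The counts themselves were 82, 87, 168 and 288 in Alox15-/- and 364, 474, 1920 and 244 in WT.

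The difference in Mki67 did not rest on WT replicate 3 alone. Without that library the log2 fold change was -1.04 and the adjusted p 0.0191 in the same edgeR test. The call was lost when Alox15-/- replicate 1, 2 or 3 was left out (adjusted p = 0.127, 0.12 and 0.113), with log2 fold changes of -1.54, -1.60 and -1.72. It was also lost with 3 other tests on all libraries, edgeR's robust quasi-likelihood test (adjusted p = 0.476), DESeq2 (adjusted p = 0.0545) and limma-voom (adjusted p = 0.086), in which the log2 fold change was between -1.69 and -1.51. Ptpre, the nearest tested gene, 3.49 kb away, had a log2 fold change of 0.16 (adjusted p = 0.936, edgeR).

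Mki67 was lower relative to the other mitosis genes of the same library as well. As a percentage of the summed normalized CPM of the other 39 genes, it was 0.868, 0.73, 1.21 and 1.54 in Alox15-/- replicates 1 to 4. In WT replicates 1 to 4 it was 2.25, 2.36, 4.86 and 2.55. The 2 groups did not overlap in this ratio, for which no p is given since the genes were chosen with results known. The sum of the other 39 genes was 2280, 3234, 2623 and 2696 normalized CPM in Alox15-/- and 2537, 3221, 3983 and 2012 in WT, and these groups overlapped. WT replicate 4 had the lowest sum of the 8 libraries and yet more Mki67 than any Alox15-/- library.

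**Figure D2:**
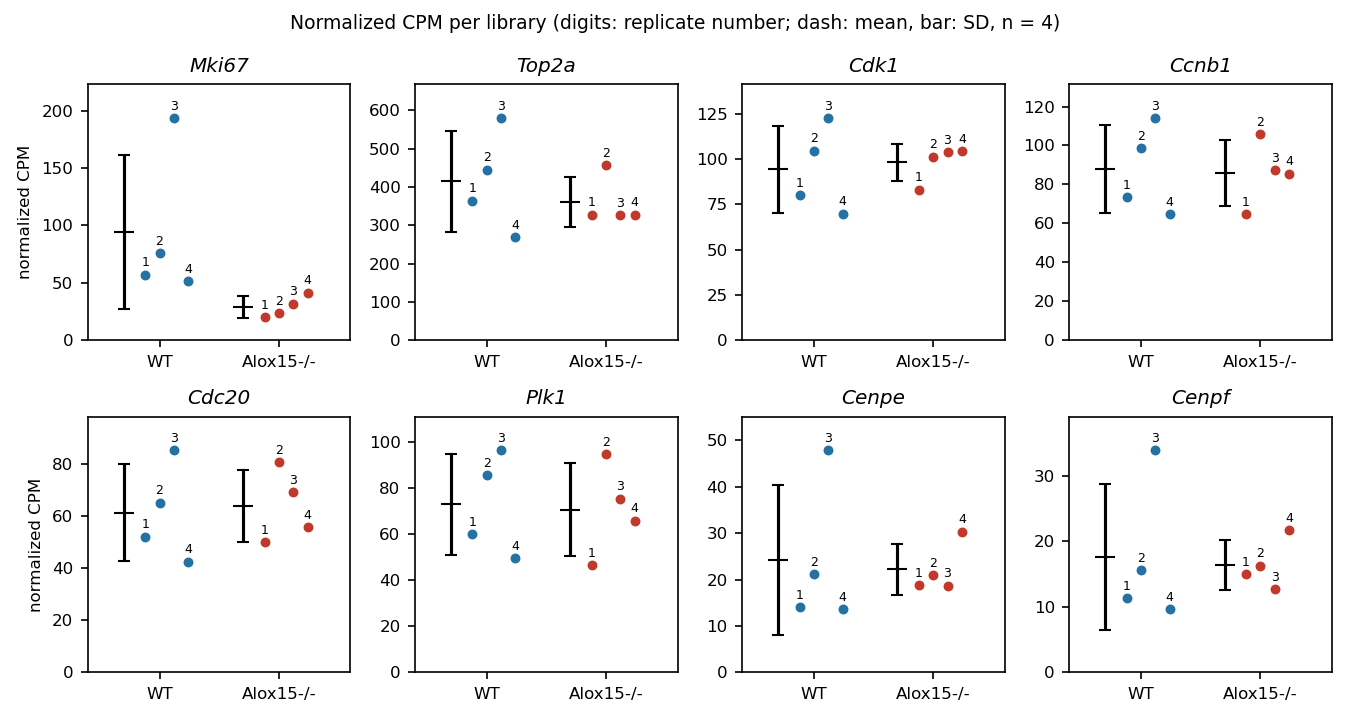
Normalized CPM (vertical axis, from 0) of 8 genes in the WT (blue) and Alox15-/- (red) libraries; digits give the replicate number, and dashes with bars the mean and SD of 4 libraries. For Mki67 the Alox15-/- libraries sit between 19.8 and 41.4, all below the WT libraries, while the groups overlap for the other 7 genes.

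Among the cyclins, the kinase and its phosphatases, none of 6 genes passed the test. Cdk1, the kinase of mitotic entry, had 83.3, 102, 104 and 105 normalized CPM in Alox15-/- replicates 1 to 4 and 80.3, 105, 123 and 69.9 in WT, a log2 fold change of 0.05 (SE 0.15). The Alox15-/- values lay inside the WT range. Ccnb1, which encodes its partner cyclin B1, had 64.7, 106, 87.2 and 85.6 in Alox15-/- and 73.5, 98.5, 114 and 64.8 in WT. Its groups overlapped too, with a log2 fold change of -0.04 (SE 0.17). Ccnb2 (log2 fold change -0.11, SE 0.21) encodes the second mitotic B-type cyclin, and Ccna2 (-0.15, SE 0.17) cyclin A2, which acts from S phase to early mitosis. Cdc25b and Cdc25c, the phosphatases that activate CDK1, both had a log2 fold change of -0.28 (SE 0.24 and 0.20). Without WT replicate 3, the log2 fold changes of 5 of these 6 genes were above 0.

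Foxm1, the transcription factor of the G2/M genes, was among the members with the fewest counts. It had 10.1, 14.1, 14.4 and 17.7 normalized CPM in Alox15-/- replicates 1 to 4 and 12.9, 14.4, 26.4 and 12 in WT. WT replicate 3 was well above the rest, and the other 3 WT libraries lay within the Alox15-/- range. Its log2 fold change was -0.23 (SE 0.25, adjusted p = 0.871, edgeR) and turned to 0.12 without that library.

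None of the 6 mitotic kinases passed the test. Their log2 fold changes in the quasi-likelihood test on all 8 libraries were below 0, but that of Aurkb was so close to 0 that its sign changed with the scaling, the filter, the test and the libraries left out, that of Plk1 was above 0 without Alox15-/- replicate 1 or WT replicate 2, and that of Aurka was just above 0 without Alox15-/- replicate 4. Without WT replicate 3, 4 of the 6 were above 0. Plk1, which drives mitotic entry and spindle assembly, had 46.6, 95, 75.5 and 65.9 normalized CPM in Alox15-/- and 60.2, 85.7, 96.6 and 49.5 in WT. Each genotype spanned nearly the range of all 8 libraries, and the log2 fold change was -0.06 (SE 0.21). Aurka, the kinase of the spindle poles, was at -0.11 (SE 0.17). Aurkb, the kinase of the chromosomal passenger complex, was at -0.0034 (SE 0.19), and it lies 1.3 Mb from Alox15 on chromosome 11. Nek2, a kinase of centrosome separation, was at -0.18 (SE 0.19) and had the fewest counts of the 40 genes, with mean normalized CPM of 10.9 and 12.1. Ttk (-0.31, SE 0.27) and Bub1 (-0.27, SE 0.19) are kinases of the spindle checkpoint.

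The checkpoint genes that are not kinases were close to one another in size. Bub1b, which encodes BUBR1, had a log2 fold change of -0.16 (SE 0.18), Bub3, its binding partner, one of -0.09 (SE 0.12), and Mad2l1, which encodes the inhibitor MAD2, one of -0.04 (SE 0.16). Mad2l1 had 87.4, 115, 97.4 and 108 normalized CPM in Alox15-/- and 103, 131, 116 and 67.4 in WT. It was 1 of the 3 members whose highest library was not WT replicate 3.

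What the checkpoint inhibits, the anaphase-promoting complex with its co-activator, was represented by Cdc20 and by Ube2c, the ubiquitin-conjugating enzyme of the complex. Neither passed the test, and neither had a stable direction. The log2 fold change of Ube2c was below 0 with library totals, with no filter and in 4 of the fits with a library left out, and that of Cdc20 in 3 of them. Cdc20 had 50.2, 80.9, 69.2 and 56.0 normalized CPM in Alox15-/- and 52.2, 65.4, 85.5 and 42.6 in WT (log2 fold change 0.04, SE 0.19). Ube2c, among the members with the most counts, had 158, 224, 212 and 197 in Alox15-/- and 166, 224, 266 and 129 in WT (log2 fold change 0.01, SE 0.18).

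In the chromosomal passenger complex, which corrects faulty attachments and later directs cytokinesis, the 3 subunits beside Aurkb had log2 fold changes of 0.05 for Birc5 (survivin; SE 0.17), -0.14 for Incenp (the scaffold; SE 0.17) and -0.23 for Cdca8 (borealin; SE 0.16). Of the 6 kinetochore and centromere genes none passed the test. All 6 had log2 fold changes below 0 in the quasi-likelihood test on all 8 libraries, whereas 4 were above 0 without WT replicate 3, Cenpe and Cenpf were just above 0 with the replicate number as a block, and Cenpa was above 0 without Alox15-/- replicate 1 or WT replicate 2. Cenpa, the histone H3 variant of the centromere, was at -0.04 (SE 0.21), and Nuf2, Ndc80 and Spc25, subunits of the microtubule-binding NDC80 complex, were at -0.28, -0.18 and -0.27. Cenpe, a kinesin of the kinetochore, had 18.8, 20.9, 18.7 and 30.4 normalized CPM in Alox15-/- and 14.1, 21.1, 47.9 and 13.6 in WT. Cenpf, a large kinetochore protein, had 15.0, 16.3, 12.7 and 21.7 in Alox15-/- and 11.3, 15.5, 33.9 and 9.7 in WT. In both, WT replicate 3 alone lay above the Alox15-/- libraries. Without it their log2 fold changes turned from -0.15 and -0.13 to 0.46 and 0.44, the largest values above 0 among the members, and neither passed the test (lowest adjusted p of the 39 genes 0.564, edgeR).

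The 7 kinesin genes had log2 fold changes in the quasi-likelihood test on all 8 libraries from -0.36 for Kif4 to -0.11 for Kif11, and none passed the test. Without WT replicate 3, 5 of the 7 were above 0. Kif4 encodes a chromokinesin that shapes chromosomes and the central spindle, and its normalized CPM was 30.4, 34.2, 25.5 and 32.1 in Alox15-/- and 29.6, 38.4, 59.6 and 26.9 in WT. With WT replicate 3 left out, its log2 fold change was -0.05. Kif22 (-0.32, SE 0.19) is a second chromokinesin, Kif11 (SE 0.15) pushes the spindle poles apart, Kif2c (-0.17, SE 0.20) removes tubulin at kinetochores, and Kif20a (-0.14, SE 0.23) and Kif23 (-0.24, SE 0.21) act at the central spindle. The spindle proteins Tpx2, an activator of Aurora A, and Hmmr were both at -0.24, and Prc1, which bundles central spindle microtubules, was at -0.03.

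The cytokinesis genes include Kif20a, Kif23 and Prc1 together with Racgap1 and Ect2, which switch on the contractile ring. Racgap1 had 73.9, 115, 76.0 and 75.5 normalized CPM in Alox15-/- and 84.0, 108, 142 and 70.7 in WT (log2 fold change -0.26, SE 0.19). Ect2 had 30.7, 54.3, 25.5 and 23.9 in Alox15-/- and 29.3, 40.4, 32.1 and 19.5 in WT. It was the only member with its highest value in an Alox15-/- library, replicate 2, and its log2 fold change of 0.11 (SE 0.25) was the highest of the 40. Top2a, the topoisomerase that untangles chromosomes and the member with the most counts, had 327, 457, 327 and 327 in Alox15-/- and 364, 445, 580 and 269 in WT. Its groups overlapped, with a log2 fold change of -0.21 (SE 0.19), and without WT replicate 3 it was 0.00313.

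**Figure D3:**
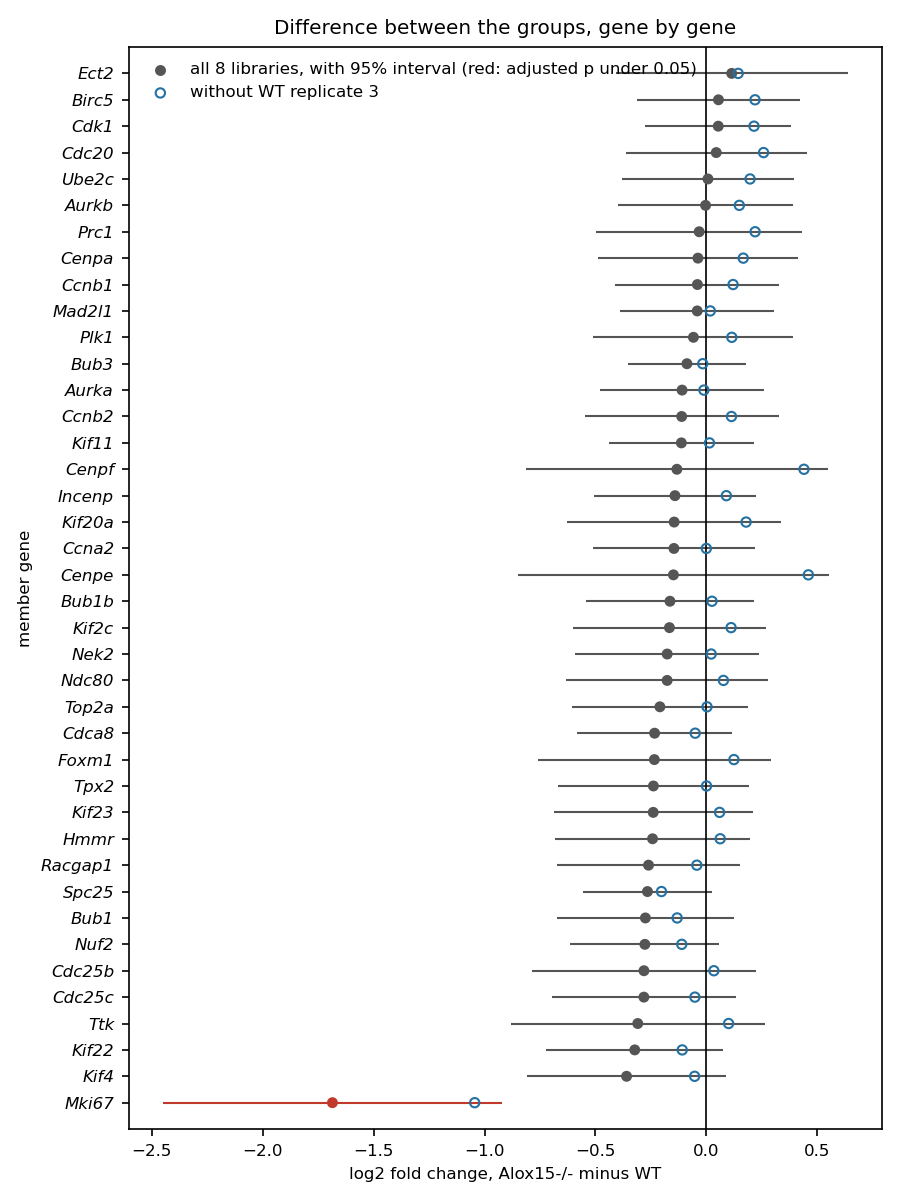
Log2 fold change (Alox15-/- minus WT) of each of the 40 genes, as filled circles with the 95% interval from all 8 libraries and as open circles without WT replicate 3. Red marks Mki67, the only gene with an adjusted p under 0.05; with all libraries 35 genes lie left of 0, and without WT replicate 3 there are 29 right of 0.

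The shared direction of the other members depended on WT replicate 3. With it, 35 of the 40 log2 fold changes were below 0. Without it, 11 were below 0 and 29 above, the median was 0.06 and 49.2% of the 12575 genes tested were below 0. Mki67 was the 1 member called in that fit as well. Leaving out WT replicate 4, the library with the lowest levels, had the opposite effect, with 40 of 40 below 0, a median of -0.29 and 11 at an unadjusted p under 0.05, of which Mki67 passed the adjusted threshold and the next lowest adjusted p was 0.298 (edgeR). The bar charts of the fits with 1 library left out show all 8 cases.

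**Figure D4:**
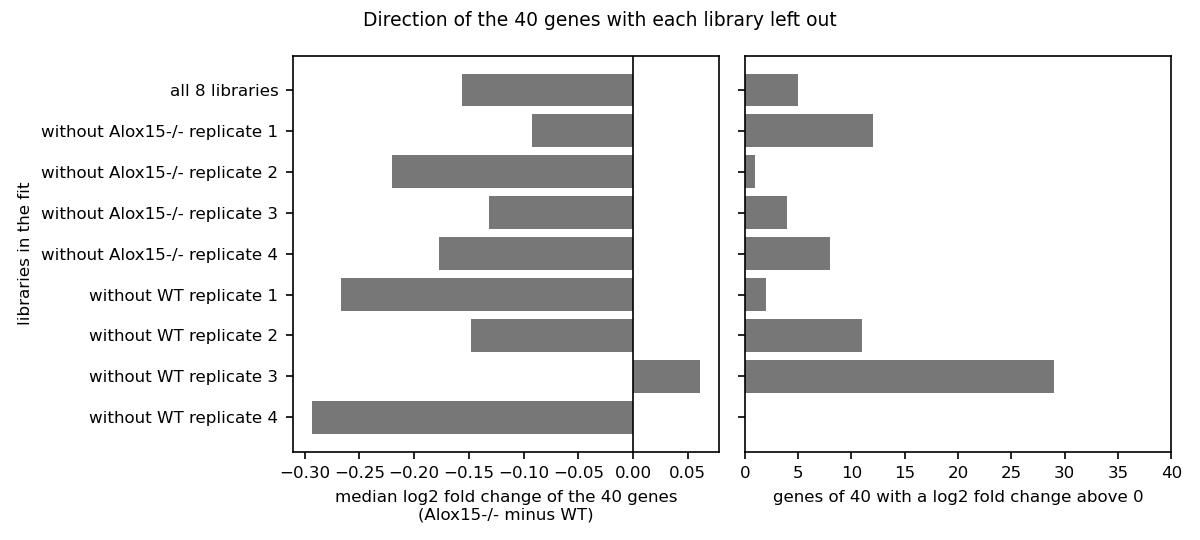
Median log2 fold change of the 40 genes (left) and the number of the 40 above 0 (right) with all 8 libraries and with each library left out in turn. The median is below 0 in every fit except the one without WT replicate 3, where it is 0.06 and 29 genes are above 0.

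The members moved together between libraries of 1 genotype. In WT, replicate 3 was highest for 37 of the 40 genes and replicate 4 lowest for 39, and the full order 3, 2, 1, 4 was found for 34 of the 40, compared with 8.16% of all genes tested. In Alox15-/-, replicate 2 was highest for 31 and replicate 1 lowest for 25. WT replicate 3 lay above every Alox15-/- library for 39 genes, WT replicate 4 lay below every Alox15-/- library for 26, and for 25 genes all 4 Alox15-/- values were inside the WT range. The SD over WT libraries was larger than that over Alox15-/- libraries for 38 of the 40 genes (95%), compared with 52.2% of all genes tested. WT replicate 3 was 1.63 times the geometric mean of the other WT libraries for the median member, from 1.13 (Ect2) to 3.2 (Mki67), and 1.01 times for the median of all genes tested. The difference in spread between the genotypes was not tested.

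The members that stood out most in WT replicate 3 were long transcripts. Its level was 3.2, 3.0 and 2.84 times that of the other WT libraries for Mki67, Cenpe and Cenpf, whose longest annotated transcripts of 10061, 7910 and 11130 bases are the 3 longest of the 40. Mad2l1, next at 7557 bases, was 1.2 times. Over the 40 genes Spearman's rho between transcript length and this excess was 0.26, and over the 12335 tested genes with a known length it was 0.27, across genes of the same 4 libraries, which are not independent. On the log2 scale the median excess was 0.132 for the 808 genes of at least 7500 bases and -0.224 for the 1685 under 1000 bases. It was 1.68, 1.59 and 1.51 for Mki67, Cenpe and Cenpf, far above the median of the long genes. In the comparison of the genotypes, Spearman's rho between transcript length and the log2 fold change was -0.15 over the same 12335 genes. The 1685 genes with transcripts under 1000 bases had a median log2 fold change of 0.08. The 808 tested genes with transcripts of at least 7500 bases had a median log2 fold change of -0.00534, and 2 of them were called lower, Mki67 and Arhgef12 (log2 fold change -0.89, adjusted p = 0.00332, edgeR). Arhgef12 was picked out after its value was seen. The part of transcript length in the level of Mki67 was not tested.

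Beyond the 40 members, 1 gene in 7 further lists of cell cycle genes passed the test, and it was higher in the libraries labelled Alox15-/-. Pttg1 encodes securin, which holds separase inactive until anaphase. It had 27.3, 47.2, 40.5 and 46.6 normalized CPM in Alox15-/- replicates 1 to 4 and 25.2, 25.8, 23.6 and 26.0 in WT. All Alox15-/- libraries lay above all WT libraries, replicate 1 only just. Its log2 fold change was 0.69 (SE 0.16, adjusted p = 0.0429, edgeR), where 1.05% of all genes tested were called higher. The call was kept in 2 of the 8 fits with a library left out, those without Alox15-/- replicate 1 and without WT replicate 4, and the log2 fold change was between 0.61 and 0.83 in all 8. On all 8 libraries it was lost with library totals (adjusted p = 0.0561), at least 10 counts in every library (0.0534) and the replicate block (0.0654) in edgeR, and with limma-voom (adjusted p = 0.066). Pttg1 lies on chromosome 11, 26.9 Mb from Alox15.

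Pttg1 was the 1 call among 85 further mitosis genes, of which 71 had log2 fold changes below 0, with a median of -0.11. The lowest was Kifc1, a minus-end kinesin (log2 fold change -0.55, adjusted p = 0.21, edgeR), whose 3′ end is 96.6% identical to that of Kifc5b over 444 bases, so that its reads are uncertain. The 46 S phase genes had 40 log2 fold changes below 0 and a median of -0.11, from -0.28 for Pole, the leading-strand DNA polymerase, to 0.11 for Ccne2, cyclin E2, whose 3′ end matches that of Ints8 at 100% over 408 bases, so that its reads are uncertain too. Without WT replicate 3 the medians of these 2 lists were 0.04 and -0.00271. None of the 46 passed the adjusted threshold in edgeR, and 2 had an unadjusted p under 0.05.

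Regulators and other complexes of the cell cycle gave no calls. Of 21 DREAM and MuvB complex genes none passed the adjusted or the unadjusted threshold in edgeR, 14 were below 0 and the median was -0.06, from -0.21 for the activator E2f2 to 0.22 for the MuvB subunit Lin52. The 17 anaphase-promoting complex genes had a median of -0.04, from -0.20 (Anapc7) to 0.32 (Anapc13), with 1 unadjusted p under 0.05, and the 13 cohesin genes one of -0.04, from -0.17 (Smc1a) to 0.31 (the loader Mau2), with none. Of the 9 tested G1 cyclins and kinases, 7 were below 0, with a median of -0.11, from -0.31 (Cdc25a) to 0.10 (Mnat1), with 1 unadjusted p under 0.05. Of the 17 tested cell cycle inhibitors 11 were below 0, with a median of -0.06, from -0.36 (Cdkn2c) to 0.88 (Gadd45g), with 2 unadjusted p under 0.05, and no gene of these 5 lists passed the adjusted threshold. The summed level of the 39 members other than Mki67, divided by that of the 46 S phase genes, was 0.433, 0.497, 0.437 and 0.475 in Alox15-/- and 0.414, 0.473, 0.544 and 0.405 in WT, and the groups overlapped.

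**Figure D5:**
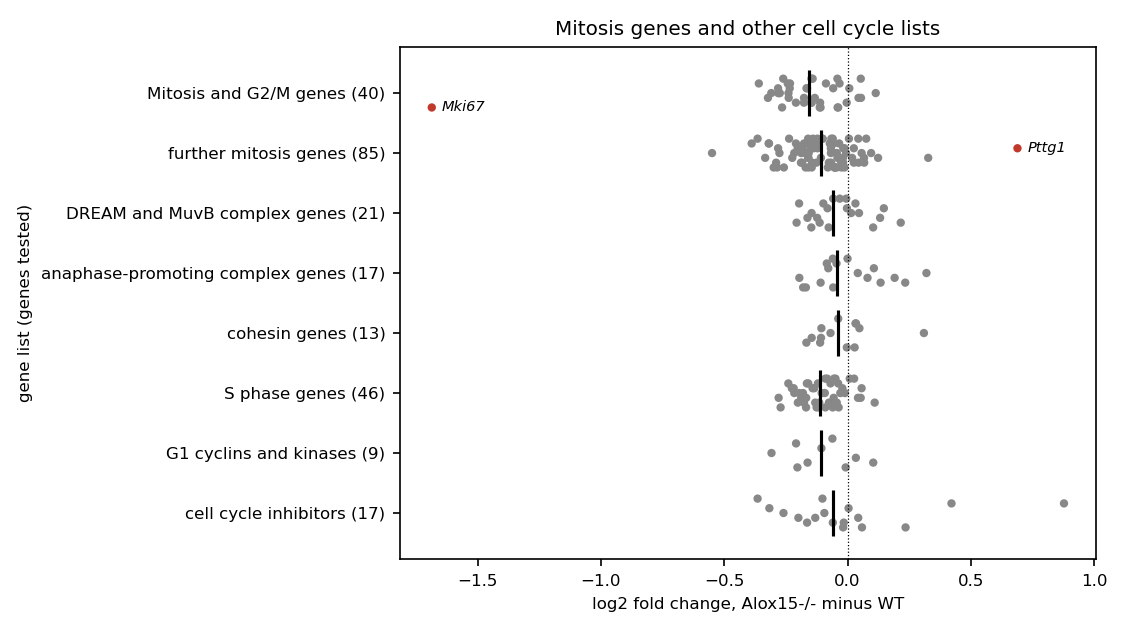
Log2 fold change (Alox15-/- minus WT) of each tested gene in the 40 mitosis and G2/M genes and in 7 further cell cycle lists; each point is 1 gene, the vertical bar is the median of the list, and red marks an adjusted p under 0.05. Only Mki67 (-1.69) and Pttg1 (0.69) are red, and the medians lie between -0.16 and -0.04.

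Some members may not have been counted apart from a neighbour or a copy. In the GENCODE annotation 22 of the 40 genes overlap another gene, for 11 of them a protein-coding gene, and the setting of strand in the counting is not given in the sources used here. The last 500 bases of 4 members matched another gene at 90% identity or more over at least 300 bases. These were Kif20a with Cdc23 and Prc1 with Rccd1, which overlap, and Cdc20 with the pseudogene Gm7856 (92.4%) and Ndc80 with 2700099C18Rik (93.4%). The values of these 4 genes are therefore uncertain. No such match was found for Mki67 or Pttg1, and the gene that overlaps Mki67 in the annotation, Gm45240, has no row of its own in the count table.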

How the data were processed

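Values are raw counts for each symbol, deposited by the authors without normalization, from MACE-seq of 4 WT and 4 Alox15-/- Treg libraries. The submitters' processing notes name Bowtie, GRCm38 and edgeR. Versions and read duplicates are not given in the sources used here. The test took genes that reached 2 CPM in 4 or more libraries (12700 of 28239). Libraries were scaled by TMM and compared with edgeR 4.0.16 (quasi-likelihood test, group as the only term) in R 4.3.3, with Benjamini-Hochberg adjustment over all genes tested. The SE is the log2 fold change divided by the square root of F. The common dispersion was 0.021 (biological coefficient of variation 14.5%). The steps were tested on simulated data. Named genes were Alox15, all members, and in each further list the genes past the threshold and the largest and smallest change. The members and lists were chosen with earlier results of these data known. Positions, lengths and 3′ ends came from GENCODE M21 (GRCm38), copies from blastn 2.17.0, promoters from RefSeq. Alternatives used DESeq2 1.42.0 and limma 3.58.1.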

Additional observations from a re-analysis of the deposited data

Results flagged for a closer look

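Single libraries that lay far from the other 3 of their genotype were looked for in the normalized CPM of the 40 members and Pttg1, in 82 groups of 4 libraries. Chance flags about 1 in 20 independent groups, and 8 were found. These groups are not independent, since they come from the same libraries and the members moved together, so the numbers cannot be compared. In Alox15-/- replicate 2, Top2a was at 457 against 327 in each of the others, Bub1 at 41.5 against 28.9 to 29.9, Ttk at 23.9 against 16.6 to 17.9, and Racgap1 at 115 against 73.9 to 76.0. In Alox15-/- replicate 1, Cdk1 was at 83.3 against 102 to 105 and Bub1b at 37.9 against 49.3 to 50.8. Hmmr in Alox15-/- replicate 4 was at 48.2 against 39.0 to 40.3. Foxm1 in WT replicate 3 was at 26.4 against 12 to 14.4.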

How the results depend on the processing

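The call of Mki67 was lost with edgeR's robust test, DESeq2 and limma-voom (0 members called in each, 1 at an unadjusted p under 0.05) and kept in 11 of 14 fits on all libraries. With each library left out, 0 to 1 members and 86 to 172 genes were called, 0 to 29 members were higher, and the median log2 fold change of the members was between -0.293 and 0.0612, above 0 only without WT replicate 3. Genes called numbered 388 without a filter on low counts and 100 with at least 10 counts in every library, against 158, of which the cause was not tested. Replicate numbers did not pair the libraries (correlations -0.198 to 0.179, and only replicate 2 correlated best with its own number), and with the replicate block 9 members were higher against 5, 146 genes were called and Mki67 kept its call (adjusted p = 0.00987, edgeR). Pttg1 lost its call with the replicate block, library totals, limma-voom, at least 10 counts in every library and 6 of 8 left-out libraries. Leaving the cell cycle genes out of the scaling, an alternative chosen after seeing the data, changed no call among the members (median -0.155). Of 858 values of the other 39 members, 0 passed the threshold and 831 moved by less than their SE. With 4 libraries a group and depths from 3723151 counts, the lowest end of the 95% intervals of these genes was -0.88 (Ttk) in the quasi-likelihood test.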
